A study of Mus musculus with 12 samples.

Results

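The 10 genes described here encode interferon-inducible GTPases of 2 families, the guanylate-binding proteins (GBPs) and the immunity-related GTPases (IRGs). They are Gbp2, Gbp3, Gbp4, Gbp5, Gbp6, Gbp7, Irgm1, Irgm2, Igtp and Iigp1, taken by gene symbol from a table of 21956 mouse genes, in which each of the 10 had 1 entry. They were chosen from the measured values of these libraries, because several were higher after intracerebral hemorrhage (ICH) and lower in knockout than in control mice. For that reason their differences between ICH and sham and between the genotypes after ICH are given as descriptions, without a test. The comparison of the genotypes in sham mice was taken as lying outside the choice and is tested, although the sham libraries also entered the comparisons with ICH.

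RNA was sequenced from bulk brain tissue of 12 mice, 3 in each of 4 groups. The tissue was taken beside the hematoma after ICH and by the same procedure in sham mice. Sham-Fabp4flox/flox and ICH-Fabp4flox/flox mice carried floxed Fabp4, the gene for a fatty acid-binding protein, and served as controls. Sham-Fabp4CKO and ICH-Fabp4CKO mice carried in addition a tamoxifen-inducible Cre recombinase driven by Tmem119, a gene of microglia, and received tamoxifen for 7 days, with surgery 14 days after the last dose. Whether the control mice received tamoxifen was not stated, nor were the ages of the floxed mice, so that Cre, tamoxifen and loss of Fabp4 cannot be told apart between the genotypes. ICH was induced by injecting collagenase into the right striatum, with tissue taken 48 h later, and sham mice went through the surgery without collagenase.

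GBPs and IRGs belong to the cell's own defence against microbes inside it. Interferon-gamma acts on genes through the GAS element in their promoters, while type I interferons act through the ISRE, an element that IRF1 binds too. The induced GTPases assemble on the membranes around intracellular bacteria and parasites, break these membranes open, and release ligands for inflammasomes. In the brain they can be induced in microglia, infiltrating leukocytes, endothelial cells and astrocytes, and in bulk tissue fewer cells of a type and less RNA per cell cannot be told apart.

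Letters matching the ISRE lay before the annotated start in each of the 7 members searched, and letters matching the GAS element in only some of them. RefSeq windows on GRCm38.p6, each 300 bases long and beginning 250 bases before the annotated start, were used for 7 of the 10 members, with 2 windows for Gbp3. Both strands were searched for the ISRE core GAAANNGAAA, which reads TTTCNNTTTC on the other strand, and for the palindromic GAS core TTCNNNGAA. The ISRE core was found in 7 of the 8 windows, against 3.44% of all 32851 windows in the table. The GAS core was found in 4 of the 8 windows, against 8.30% of all windows, and each of these 4 also held the ISRE core, against 0.454% of all windows. No promoter sequence is shown for Gbp4, Gbp6 or Iigp1. The stretches below are shown because each holds the ISRE core, and the capitals mark the ISRE and GAS cores:
Gbp2: ttttagTTTCACTTTCactgtc
Gbp3: acacagTTTCAGTTTCTATTTCccagat
Gbp5: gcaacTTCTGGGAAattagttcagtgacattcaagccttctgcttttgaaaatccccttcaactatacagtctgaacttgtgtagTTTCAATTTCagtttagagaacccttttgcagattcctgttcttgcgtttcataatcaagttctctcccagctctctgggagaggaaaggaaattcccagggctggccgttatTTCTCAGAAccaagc
Gbp7: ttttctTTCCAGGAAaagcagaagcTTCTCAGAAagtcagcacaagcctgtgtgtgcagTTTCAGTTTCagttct
Irgm1: tttcaaGAAATAGAAACCGAAActgatt
Irgm2: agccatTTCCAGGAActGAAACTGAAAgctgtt
Igtp: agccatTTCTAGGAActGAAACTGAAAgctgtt

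The GBP stretches lie on the plus strand at chr3:142620598-142620619 for Gbp2, chr3:142559993-142560020 for the first window of Gbp3, chr3:142496684-142496896 for Gbp5 and chr3:142530224-142530298 for Gbp7. The IRG stretches lie at chr11:48871429-48871456 on the minus strand for Irgm1, and on the plus strand at chr11:58214896-58214928 for Irgm2 and chr11:58199505-58199537 for Igtp. In Gbp3 and in Irgm1, 2 ISRE cores overlapped by 4 bases. The stretches of Irgm2 and Igtp, which are neighbours on chromosome 11, were alike at 32 of 33 bases, with the GAS core just before the ISRE core. A match of letters is a description of the window and not evidence of a bound factor. The annotated start of 5 of the 8 windows was found in a GENCODE transcript of the same gene. Those of Gbp7, Irgm2 and the second window of Gbp3 were not, so that distances from these starts are less certain.

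**Figure D1:**
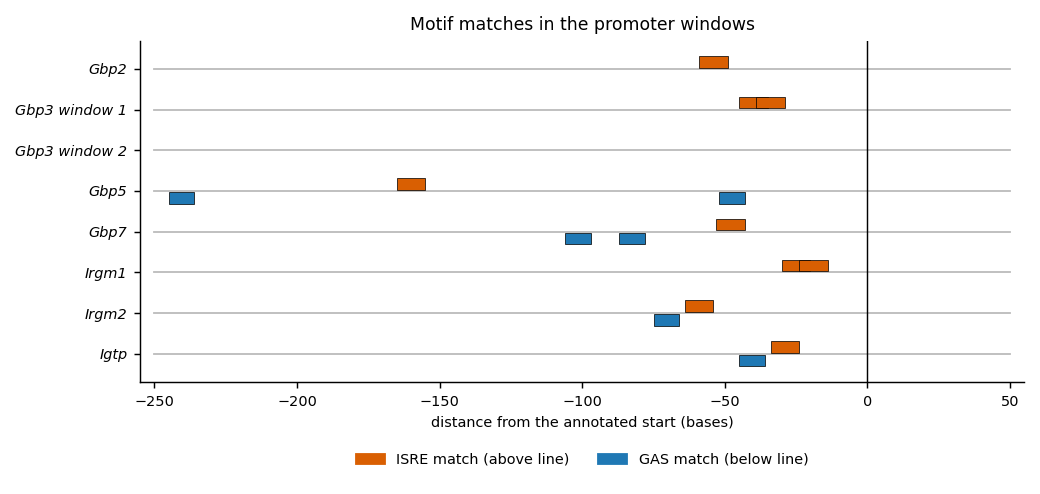
Positions of the ISRE core (orange, above each line) and the GAS core (blue, below) in the 8 promoter windows, in bases from the annotated start at 0. Of the 7 windows with an ISRE core, 6 hold it within 64 bases before the start, and Gbp5 holds it farther away, from base -165. For Gbp7 and Irgm2, among these 6, the start was not found in a GENCODE transcript of the gene.

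Before the members, Fabp4 was read as a check of the genotypes. After ICH its counts were 46, 63 and 24 among controls, against 5, 3 and 10 among knockout mice. In sham, Fabp4 had 2, 1 and 2 reads in Fabp4flox/flox mice and 0 in each Fabp4CKO mouse, so that the difference between the genotypes could be read only after ICH. The libraries held between 15650813 and 22406216 counts each. The mitochondrial share of counts was 16.3% for ICH-Fabp4flox/flox mouse 1 and 7.90% to 11.9% elsewhere, and ICH-Fabp4CKO mouse 1 had 1 read on Y-linked genes where every other mouse had at least 1302. In sham mice, Fabp4flox/flox mouse 3 stood apart from the other controls for many genes, and its part in the results below is given beside them.

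After ICH, all 10 GTPase genes were higher than in sham mice of the same genotype. Their means were all lower in Fabp4CKO than in Fabp4flox/flox mice, in sham and after ICH, although for some members single mice of the genotypes overlapped. Of all genes tested, 49.6% had a log2 fold change below 0 between the genotypes in sham and 43.8% after ICH. Levels are given as CPM, a library's counts scaled to a total of 1000000 after TMM normalization. Gbp2, whose protein gathers on parasite vacuoles and bacteria, stood at 12.7, 7.12 and 6.10 CPM in the Sham-Fabp4flox/flox mice and at 54.0, 79.7 and 67.0 CPM in the ICH-Fabp4flox/flox mice. In Fabp4CKO mice, Gbp2 stood at 5.15, 4.90 and 6.14 CPM in sham and 53.3, 32.5 and 46.1 CPM after ICH. The ICH groups thus lay far above the sham groups, and the highest ICH-Fabp4CKO mouse just under the lowest ICH-Fabp4flox/flox mouse. Gbp2 was 7.78-fold higher after ICH in Fabp4flox/flox mice (log2 fold change 2.96 ± 0.31 SE, n = 3 per group) and 8.23-fold higher in Fabp4CKO mice (3.04 ± 0.23 SE).

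Gbp5, whose protein promotes assembly of the NLRP3 inflammasome, had a wider gap between the genotypes. Its levels were 6.89, 5.58 and 2.73 CPM in Sham-Fabp4flox/flox, 2.93, 2.31 and 2.44 CPM in Sham-Fabp4CKO, 30.9, 61.1 and 46.0 CPM in ICH-Fabp4flox/flox and 20.1, 13.7 and 19.8 CPM in ICH-Fabp4CKO mice. After ICH, no knockout mouse reached the lowest control, whereas in sham the lowest control lay among the knockout mice. Gbp5 was 9.13-fold higher after ICH in Fabp4flox/flox mice and 7.05-fold higher in Fabp4CKO mice.

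Gbp4, a GBP of the mouse that is known to bind IRF7, followed another course. It stood at 5.22, 3.98 and 2.84 CPM in Sham-Fabp4flox/flox, 2.03, 1.63 and 1.36 CPM in Sham-Fabp4CKO, 10.5, 15.3 and 10.4 CPM in ICH-Fabp4flox/flox and 3.65, 2.83 and 3.77 CPM in ICH-Fabp4CKO mice. Of its ICH-Fabp4CKO mice, 2 lay in the range of the sham controls and mouse 2 just below it, with a mean 0.852 times that of Sham-Fabp4flox/flox. For each of the other 9 members, every ICH-Fabp4CKO mouse lay above every Sham-Fabp4flox/flox mouse, with means 2.80 to 5.90 times as high. Gbp4 also had the lowest fold after ICH of the 10, at 3.03-fold in Fabp4flox/flox mice (log2 fold change 1.60 ± 0.29 SE) and 2.06-fold in Fabp4CKO mice (1.04 ± 0.26 SE). Its profile over the 12 libraries followed the mean profile of the other members least closely (Pearson r = 0.81), while the other 9 members lay between 0.96 and 0.99, as a description over libraries that share the difference between ICH and sham.

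Gbp3 and Gbp7, which lie beside Gbp2 and Gbp5 on chromosome 3, had similar courses to each other. Gbp3 stood at 10.6, 8.45 and 4.15 CPM in Sham-Fabp4flox/flox, 5.15, 5.49 and 3.56 CPM in Sham-Fabp4CKO, 47.7, 67.2 and 48.5 CPM in ICH-Fabp4flox/flox and 37.1, 20.4 and 32.4 CPM in ICH-Fabp4CKO mice. Gbp7, whose protein has been tied to the oxidative defence of phagocytes, stood at 5.50, 6.08 and 3.26 CPM in Sham-Fabp4flox/flox, 3.12, 2.95 and 2.86 CPM in Sham-Fabp4CKO, 31.1, 40.2 and 30.2 CPM in ICH-Fabp4flox/flox and 26.1, 15.1 and 19.6 CPM in ICH-Fabp4CKO mice. For both genes the knockout mice lay below the controls after ICH without overlap, and for Gbp7 in sham as well. Gbp7 was 6.91-fold higher after ICH in Fabp4flox/flox and 6.88-fold higher in Fabp4CKO mice. Gbp6 had the widest spread relative to its mean of the members in every group but ICH-Fabp4CKO, with 5.79, 3.26 and 1.26 CPM in Sham-Fabp4flox/flox, 2.27, 0.726 and 3.09 CPM in Sham-Fabp4CKO, 21.1, 51.1 and 29.7 CPM in ICH-Fabp4flox/flox and 17.5, 20.96 and 22.3 CPM in ICH-Fabp4CKO mice. Its genotypes overlapped in sham and after ICH. Of the 75-base stretches of Gbp6 transcripts in the GENCODE annotation, 67.3% also occur in transcripts of other genes, so that its estimated counts depend on how shared reads were divided.

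**Figure D2:**
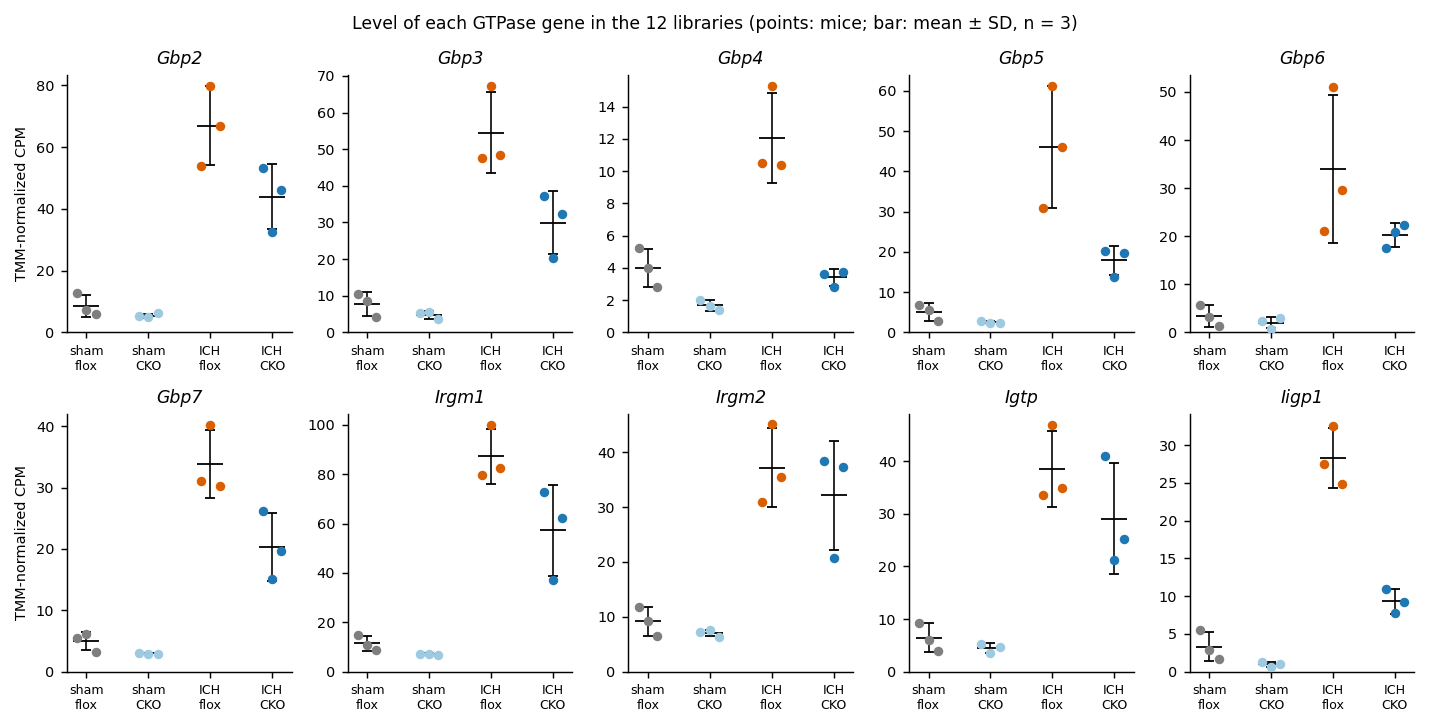
TMM-normalized CPM of the 10 genes (vertical axes from 0, one panel a gene) in the 3 mice of each group (points), with the mean and SD (bars). The ICH group lies above the sham group of the same genotype in each panel, and in the panels of Gbp4, Gbp5 and Iigp1 the ICH-Fabp4CKO mice lie well below the ICH-Fabp4flox/flox mice, while those of Irgm2 and Igtp overlap.

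The regulatory IRGs sit on the cell's own membranes, where they hold the effector IRGs inactive, and Irgm1 also takes part in autophagy and the upkeep of mitochondria. Irgm1 stood at 14.7, 10.8 and 8.78 CPM in Sham-Fabp4flox/flox, 7.33, 7.26 and 6.84 CPM in Sham-Fabp4CKO, 79.5, 99.8 and 82.3 CPM in ICH-Fabp4flox/flox and 72.8, 37.0 and 62.0 CPM in ICH-Fabp4CKO mice. Its genotypes did not overlap in either condition. Irgm2 stood at 11.7, 9.22 and 6.52 CPM in Sham-Fabp4flox/flox, 7.14, 7.58 and 6.37 CPM in Sham-Fabp4CKO, 31.0, 45.1 and 35.4 CPM in ICH-Fabp4flox/flox and 38.5, 20.7 and 37.2 CPM in ICH-Fabp4CKO mice. Igtp, also named Irgm3, stood at 9.33, 6.08 and 3.99 CPM in Sham-Fabp4flox/flox, 5.30, 3.58 and 4.64 CPM in Sham-Fabp4CKO, 33.6, 46.8 and 34.97 CPM in ICH-Fabp4flox/flox and 40.9, 21.1 and 25.2 CPM in ICH-Fabp4CKO mice. The genotypes overlapped for Irgm2 and Igtp in sham and after ICH. These 2 genes share 4.78% and 7.80% of their 75-base stretches with other genes, mostly with each other.

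Iigp1, the effector IRG that coats and disrupts parasite vacuoles, stood apart from the regulators. Its levels were 5.46, 2.82 and 1.68 CPM in Sham-Fabp4flox/flox, 1.23, 0.635 and 1.08 CPM in Sham-Fabp4CKO, 27.5, 32.5 and 24.8 CPM in ICH-Fabp4flox/flox and 10.9, 7.73 and 9.21 CPM in ICH-Fabp4CKO mice. Every knockout mouse lay below every control, in sham and after ICH. Iigp1 was 8.54-fold higher after ICH in Fabp4flox/flox mice (log2 fold change 3.09 ± 0.40 SE) and 9.55-fold higher in Fabp4CKO mice (3.26 ± 0.31 SE). Its estimated folds after ICH were thus similar while its levels were not, with a log2 difference in response of 0.12 ± 0.51 SE.

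Levels can be compared between genes only per length, here as CPM per kilobase of exon in the GENCODE annotation. In ICH-Fabp4flox/flox mice the order ran from Gbp2 (26.6 ± 5.1 SD CPM per kilobase, n = 3) through Igtp, Gbp3, Irgm1, Irgm2, Gbp5, Gbp7, Gbp6 and Iigp1 to Gbp4 (1.61 ± 0.37 SD). Neighbours in this order overlapped within 1 SD, except between Irgm1 (15.01 ± 1.9 SD) and Irgm2 (10.1 ± 1.9 SD) and between Iigp1 (4.86 ± 0.67 SD) and Gbp4. In ICH-Fabp4CKO mice Gbp2 was again first (17.5 ± 4.2 SD), Igtp second (14.4 ± 5.2 SD), and Iigp1 (1.60 ± 0.28 SD) and Gbp4 (0.456 ± 0.069 SD) last. In sham mice of either genotype Gbp2, Igtp, Irgm2, Gbp3 and Irgm1 formed the upper 5, from 1.97 to 3.44 CPM per kilobase in Fabp4flox/flox and from 1.23 to 2.23 CPM per kilobase in Fabp4CKO mice.

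ICH against sham gave a member median log2 fold change of 2.89 in Fabp4flox/flox mice, with a range from 1.60 (Gbp4) to 3.30 (Gbp6), beside a median of 0.02 over the 14719 genes tested. In Fabp4CKO mice the member median was 2.80, with a range from 1.04 to 3.34, beside 0.01 over 14737 genes. By edgeR's quasi-likelihood F-test, at a Benjamini-Hochberg adjusted p under 0.05, 10 of 10 members were counted as higher in Fabp4flox/flox mice, where 26.2% of the genes tested were, and 10 of 10 in Fabp4CKO mice, where 24.5% were. The ICH mice all lay above the sham mice for 10 of 10 members in each genotype, as they did for 33.0% of the genes tested in Fabp4flox/flox and 32.1% in Fabp4CKO mice. Since the members were picked for being higher after ICH, nothing is read from these counts. The count for Fabp4CKO mice was 9 in 5 of the 6 fits that left out 1 library, each time without Gbp4, and 10 without ICH-Fabp4CKO mouse 2.

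The estimated fold after ICH was of like size in both genotypes for most members, with wide SEs. The difference between the genotypes in the log2 response to ICH, Fabp4CKO minus Fabp4flox/flox, lay between -0.60 (Gbp4, ± 0.39 SE) and 0.13 (Irgm2, ± 0.38 SE), with 5 members above 0 and 5 below. Its median was 0.01 over the members and 0.03 over the 15089 genes fitted. After Gbp4 came Gbp5, at -0.41 ± 0.47 SE, and the other 8 members lay between -0.20 and 0.13, with SEs from 0.34 (Irgm1) to 1.06 (Gbp6). At SEs of this size, equal responses of the genotypes were not established. The member median was -0.41 without Sham-Fabp4flox/flox mouse 1 and 0.22 without Sham-Fabp4flox/flox mouse 3, so that it rested on the spread among the sham controls.

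**Figure D3:**
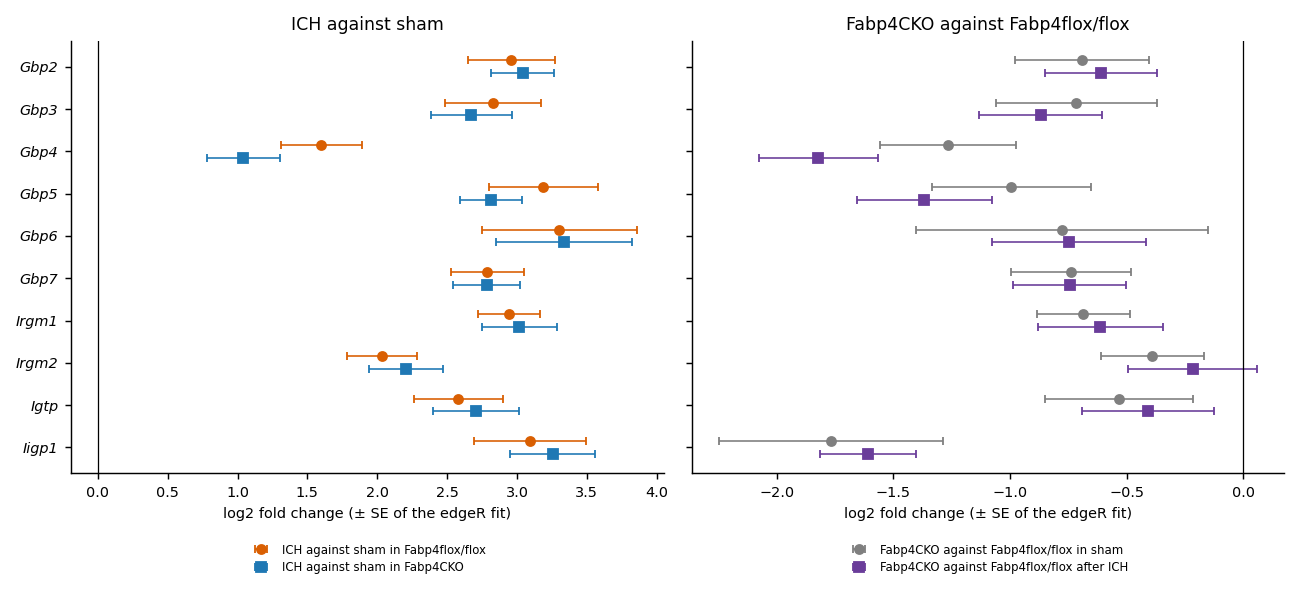
Log2 fold change of each gene, with the SE of the edgeR fit, for ICH against sham in each genotype (left) and for Fabp4CKO against Fabp4flox/flox in each condition (right). The folds after ICH of the genotypes lie close together except for Gbp4 and Gbp5, and the points on the right lie below 0.

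Between ICH-Fabp4CKO and ICH-Fabp4flox/flox mice the member median log2 fold change was -0.75, beside 0.06 over the 14600 genes tested. Gbp4 (3.54-fold lower, log2 fold change -1.82 ± 0.26 SE), Iigp1 (3.05-fold lower, -1.61 ± 0.20 SE) and Gbp5 (2.58-fold lower, -1.37 ± 0.29 SE) had the widest gaps. Irgm2 (1.16-fold lower, -0.22 ± 0.28 SE) and Igtp (1.33-fold lower, -0.41 ± 0.28 SE) had the narrowest, and the log2 value of Irgm2 was 0.02 without ICH-Fabp4CKO mouse 2. Every knockout mouse lay below every control for 7 of 10 members, all but Gbp6, Irgm2 and Igtp, and for 9.51% of the genes tested. With edgeR's quasi-likelihood test 0 of 10 members were counted as lower at an adjusted p under 0.05, as 0.0% of all genes were. At an unadjusted p under 0.05 the count was 6 of 10, beside 5.82% of all genes, and with DESeq2 at an adjusted p under 0.05 it was 3 of 10 (Gbp4, Gbp5 and Iigp1), beside 2.21%. The choice of members used this comparison, so that nothing is read from these counts either.

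The spread within the ICH groups ran through the members together. ICH-Fabp4flox/flox mouse 2 was the highest of its group for 10 of 10 members, and ICH-Fabp4CKO mouse 2 the lowest of its group for 9 of 10. The member median was -0.56 without the former, -0.62 without the latter, and -0.89 without ICH-Fabp4CKO mouse 1, the mouse with 1 Y-linked read. Without ICH-Fabp4flox/flox mouse 1, whose mitochondrial share was high, it was -0.88.

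In sham mice, no member passed the adjusted threshold in edgeR's quasi-likelihood test, while all 10 had log2 fold changes below 0. The choice of members named no condition for the knockout's lower levels, so that this comparison may not be fully independent of it. The values were -1.77 ± 0.48 SE for Iigp1 (3.41-fold lower in Fabp4CKO, adjusted p = 0.407), -1.27 ± 0.29 SE for Gbp4 (2.41-fold lower, adjusted p = 0.323) and -0.99 ± 0.34 SE for Gbp5 (1.99-fold lower, adjusted p = 0.477), with n = 3 per group. For Irgm1 the value was -0.69 ± 0.20 SE (adjusted p = 0.427) and for Irgm2 -0.39 ± 0.22 SE (adjusted p = 0.530), both from edgeR. The adjusted p of the 10 members ranged from 0.323 to 0.616. Of the genes tested, 0.111% were called lower, and 49.6% had a log2 fold change below 0. At an unadjusted p under 0.05, 6 of 10 members were lower (Gbp2, Gbp4, Gbp5, Gbp7, Irgm1 and Iigp1), beside 6.07% of the genes tested. Every knockout mouse lay below every control for 4 of 10 members (Gbp4, Gbp7, Irgm1 and Iigp1), beside 8.07% of the genes tested.

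This result turned on the method and on a single library. DESeq2 called 2 of 10 members lower, Gbp4 (adjusted p = 0.0280) and Iigp1 (adjusted p = 0.0413), beside 0.966% of the genes tested. Over all alternative fits, by edgeR or DESeq2, the adjusted p ranged from 0.00684 to 0.815 for Gbp4 and from 0.00692 to 0.866 for Iigp1. Sham-Fabp4flox/flox mouse 3 was the lowest control for 10 of 10 members. Without it, edgeR called 9 of 10 members lower, all but Gbp6 (adjusted p = 0.120), in a fit in which the number of all genes called lower went from 16 to 1331, and 1531 more were called higher. Sham-Fabp4flox/flox mouse 1 was the highest control for 9 of 10 members, and without it the member median went from -0.73 to -0.44 and edgeR called 0 of 10.

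The members lined up in nearly the same order by genotype difference in sham and after ICH, in libraries that these comparisons do not share. Across the 10 genes the log2 differences correlated with Pearson r = 0.90 and Spearman rho = 0.94, against r = 0.08 across the 13992 genes tested in both. The values after ICH entered the choice of the members, and genes are not independent replicates. These correlations are therefore a description without a test. Iigp1 and Gbp4 took the first 2 places and Gbp5 the third in either condition, and Igtp and Irgm2 the last 2. The difference after ICH minus that in sham was most negative for Gbp4, at -0.56, followed by Gbp5, at -0.37, and lay between -0.15 and 0.17 for the other 8.

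**Figure D4:**
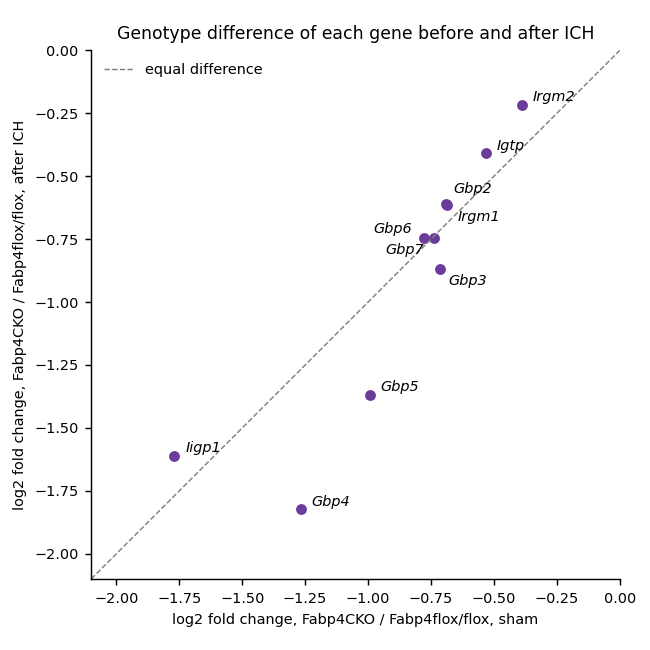
Log2 fold change of Fabp4CKO against Fabp4flox/flox in sham (horizontal) and after ICH (vertical) for the 10 genes, with a dashed line of equal difference. Irgm2 and Igtp lie nearest 0 in both conditions, Iigp1 and Gbp4 farthest, and Gbp4 and Gbp5 lie below the line.

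The interferons themselves were hardly detected. Ifng, the gene for interferon-gamma, had 0, 1 and 4 reads in ICH-Fabp4flox/flox, 0, 1 and 0 in ICH-Fabp4CKO, 1, 0 and 1 in Sham-Fabp4flox/flox and 0, 1 and 2 in Sham-Fabp4CKO mice. Ifnb1 had 3 reads in ICH-Fabp4CKO mouse 1 and 0 in the other 11 libraries, and Ifna1, Ifna2 and Ifna4 had 0 reads in every library. At these depths no difference in these ligands was detectable.

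Genes of interferon signalling rose after ICH in both genotypes. Of 11 tested genes for the interferon-gamma receptor and its signalling, 9 rose in Fabp4flox/flox and 9 in Fabp4CKO mice at the adjusted threshold. Ifng had too few reads to be tested. Of all genes tested, 26.2% rose in Fabp4flox/flox and 24.5% in Fabp4CKO mice, and these shares also stand beside the lists below. Irf1, a transcription factor induced by interferon-gamma, went from 5.28 ± 0.24 to 27.8 ± 2.7 CPM (SD, n = 3) in Fabp4flox/flox mice (edgeR adjusted p = 0.000287) and from 4.71 ± 0.29 to 26.6 ± 8.7 CPM in Fabp4CKO mice (edgeR adjusted p = 0.00549). Between the genotypes after ICH, the log2 fold change was -0.07 ± 0.27 SE for Irf1 (edgeR adjusted p = 0.943), and the list median was 0.04. Nlrc5, which drives MHC class I genes, and Irf8, a factor of myeloid cells, rose as well, with log2 fold changes of 3.51 and 3.33 in Fabp4flox/flox mice.

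On the type I side, the list held genes for the receptor, ISGF3 and other factors of the type I response. Of these, 8 of 8 tested rose in Fabp4flox/flox and 7 of 8 in Fabp4CKO mice. Irf7, which amplifies the type I response, went from 8.14 ± 4.74 to 85.7 ± 30.1 CPM (SD, n = 3) in Fabp4flox/flox (edgeR adjusted p = 0.00258) and from 3.29 ± 0.42 to 51.9 ± 24.6 CPM in Fabp4CKO mice (edgeR adjusted p = 0.00478). Irf9, the DNA-binding part of ISGF3, rose by a log2 fold change of 1.98 in Fabp4flox/flox and 2.40 in Fabp4CKO mice. After ICH the log2 difference between the genotypes was -0.73 ± 0.40 SE for Irf7 (edgeR adjusted p = 0.499) and -0.11 ± 0.28 SE for Irf9 (edgeR adjusted p = 0.897).

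Other targets of interferon rose after ICH too. Of 19 tested interferon-gamma-inducible genes, 17 rose in Fabp4flox/flox mice, among them Cxcl10, a chemokine for T cells, from 0.484 ± 0.066 to 54.2 ± 20.2 CPM (SD, n = 3), the peptide transporter gene Tap1 and the immunoproteasome genes Psmb8 and Psmb9. In Fabp4CKO mice 17 rose and 1 fell. Of 20 type I interferon-stimulated genes, 19 rose in each genotype, among them Oas3 and Oas1a, which sense double-stranded RNA, Rsad2, an antiviral enzyme, and Zbp1, a sensor of nucleic acids. After ICH the median log2 difference between the genotypes was -0.06 for the former list, with 10 of 19 genes below 0, and -0.19 for the latter, with 16 of 20 below 0. In sham it was -0.45 with 15 of 17 below 0 and -0.70 with 18 of 19 below 0. No gene of either list passed the adjusted threshold between the genotypes in edgeR's test. After ICH, 2 and 1 genes had an unadjusted p under 0.05, beside 1777 of the 14600 genes tested. DESeq2 called 0 and 0, beside 578. In sham, 4 and 10 genes had an unadjusted p under 0.05, beside 1471 of the 14395 genes tested. DESeq2 called 1 and 1, beside 150. These all-gene counts are in either direction and also stand beside the next list.

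Relatives of the members among the inducible GTPases rose after ICH in 13 of 14 tested cases in Fabp4flox/flox and 11 of 12 in Fabp4CKO mice. They include Mx1, an antiviral GTPase (log2 fold change 4.50 and 4.98 in the respective genotypes), the effector IRG Ifi47 (3.08 and 3.89) and Gbp9 (1.98 and 2.15). Between the genotypes after ICH their median log2 fold change was -0.49, with 9 of 13 below 0 and a range from -2.07 to 1.25. The lowest value belonged to Tgtp1, an effector IRG named here after its values were seen. Tgtp1 stood at 9.07, 17.1 and 13.1 CPM in ICH-Fabp4flox/flox and 2.74, 3.41 and 3.22 CPM in ICH-Fabp4CKO mice (edgeR adjusted p = 0.208), and at 4.55, 6.46 and 3.78 CPM in Sham-Fabp4flox/flox and 2.32, 1.63 and 1.64 CPM in Sham-Fabp4CKO mice. Every knockout mouse lay below every control in both conditions, and its estimated counts were not whole numbers. Tgtp1 and Tgtp2 are near-identical copies, so that its level is uncertain. In edgeR 0 of 13 passed the adjusted threshold after ICH, 4 had an unadjusted p under 0.05, and DESeq2 called 1. In sham the median of these relatives between the genotypes was -0.83, with 7 of 8 tested below 0, beside -0.73 for the members. There edgeR called 0 of 8 at the adjusted threshold, 4 had an unadjusted p under 0.05, and DESeq2 called 1.

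The proteins that load GTPases onto membranes, and the inflammasome parts that GBPs act on, rose in part. Of 14 tested genes, 6 rose in Fabp4flox/flox and 8 in Fabp4CKO mice. In Fabp4flox/flox mice these were the inflammasome genes Pycard (log2 fold change 3.09), Gsdmd (3.03), Nlrp3 (2.49), Casp1 (3.51), Casp4 (4.70) and Aim2 (2.47), while none of the 8 genes for conjugation and its cargo passed. In Fabp4CKO mice the same 6 rose together with the conjugation genes Atg5 (log2 fold change 0.87) and Atg7 (1.08), which are named after their values were seen and stood at 0.28 and 0.24 in Fabp4flox/flox mice. After ICH the list median between the genotypes was 0.16, and Nlrp3 had a log2 difference of 1.31 ± 0.50 SE (edgeR adjusted p = 0.381).

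**Figure D5:**
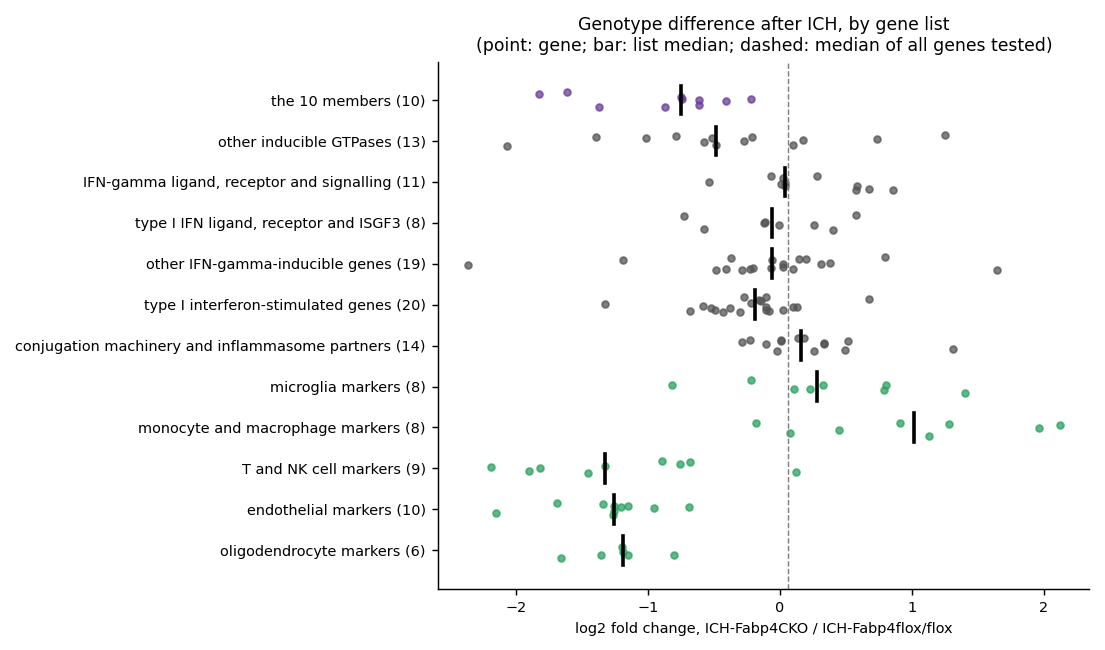
Log2 fold change of ICH-Fabp4CKO against ICH-Fabp4flox/flox for each tested gene (points) of the members (purple), 6 lists of related genes (grey) and 5 lists of cell type markers (green), with list medians (black bars) and the median of all genes tested (dashed). The members, which were chosen for lying below 0 here, have a median of -0.75, and the related lists have medians from -0.49 to 0.16.

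No marker of the 9 cell type lists passed the adjusted threshold in edgeR's test between the genotypes after ICH, but the sums of some lists lay apart. Of the 14600 genes tested, 1777 had an unadjusted p under 0.05 in either direction, and DESeq2 called 578. These counts stand beside all the marker lists below. The summed level of 10 endothelial markers was 717 to 1433 CPM in ICH-Fabp4flox/flox and 393 to 498 CPM in ICH-Fabp4CKO mice, with 10 of 10 markers below 0, a median log2 difference of -1.26, 10 of 10 at an unadjusted p under 0.05 and 6 called by DESeq2. In sham the same sum was 329 to 363 CPM in Fabp4flox/flox and 309 to 324 CPM in Fabp4CKO mice. T and NK cell markers had a median of -1.32 after ICH, with 8 of 9 tested below 0, 5 at an unadjusted p under 0.05 and 1 called by DESeq2, although their summed level overlapped, at 21.1 to 64.8 CPM in ICH-Fabp4flox/flox and 27.9 to 38.3 CPM in ICH-Fabp4CKO mice. Oligodendrocyte markers summed to 18434 to 26562 CPM in ICH-Fabp4flox/flox and 7244 to 11466 CPM in ICH-Fabp4CKO mice, with 6 of 6 at an unadjusted p under 0.05 and 5 called by DESeq2. Their part in the level of the members was not tested.

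Sums of myeloid markers overlapped between the genotypes after ICH, with higher values in 2 of the 3 knockout mice. The 8 microglia markers summed to 1406 to 1585 CPM in ICH-Fabp4flox/flox and 1494 to 4421 CPM in ICH-Fabp4CKO mice, and the 8 monocyte and macrophage markers to 732 to 1446 CPM and 1007 to 8585 CPM. Neutrophil markers summed to 17.6 to 47.96 CPM and 18.2 to 237.9 CPM. Their median log2 difference was 2.79, with 0 of 6 tested below 0. Of these, 4 had an unadjusted edgeR p under 0.05, and DESeq2 called 3. For monocyte and macrophage markers the median was 1.02, with 1 of 8 below 0, and these counts were 2 and 0 in either direction. For microglia markers the median was 0.28, with 2 of 8 below 0, and the counts were 3 and 0. ICH-Fabp4CKO mouse 2, the lowest of its group for 9 of 10 members, was also the lowest for each of the 3 myeloid sums. Neuron markers summed to 1301, 2135 and 3965 CPM in the ICH-Fabp4flox/flox mice. In the ICH-Fabp4CKO mice they summed to 2154, 4342 and 1650 CPM, with mouse 2 the highest. Erythroid markers overlapped at 175 to 583 CPM in ICH-Fabp4flox/flox and 122 to 1125 CPM in ICH-Fabp4CKO mice. Astrocyte markers overlapped at 5269 to 6269 CPM in ICH-Fabp4flox/flox and 4081 to 5419 CPM in ICH-Fabp4CKO mice. The part of these sums in the members was not tested. Among the defining markers Ly6g, of neutrophils, was at 0 in the ICH-Fabp4flox/flox mice, and markers of neurons, astrocytes, oligodendrocytes and microglia were all detected in every group.

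In sham the microglia sum was 356 to 422 CPM in Fabp4flox/flox and 362 to 402 CPM in Fabp4CKO mice, so that the genotypes overlapped. Sham-Fabp4flox/flox mouse 1, the highest control for 9 of 10 members, had 56.3 CPM of monocyte and macrophage markers, against 14.9 and 18.6 CPM in the other controls and 12.4 to 15.6 CPM in Sham-Fabp4CKO mice, where Chil3 was at 0. Sham-Fabp4flox/flox mouse 3, the lowest control, had 8551 CPM of oligodendrocyte markers, against 14044 and 14984 CPM in the other controls. The part of these differences in the members was not tested.

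Among 14186 other genes with a mean of at least 1 CPM, the profile over the 12 libraries most like the mean standardized profile of the members was that of Ifi27l2a (Pearson r = 0.99), followed by Ifit3, Cntf, Rtp4 and Irf7, each at 0.99. The libraries share the difference between ICH and sham, so these values are a description. Group means of Ifi27l2a were 2.12 CPM in Sham-Fabp4flox/flox, 0.557 CPM in Sham-Fabp4CKO, 31.5 CPM in ICH-Fabp4flox/flox and 14.2 CPM in ICH-Fabp4CKO mice. Of these genes all but Cntf, which encodes ciliary neurotrophic factor, are known interferon-stimulated genes. By Spearman correlation Ifit3 tied for first place with Meox1, Cav1 and Itgb3bp, and Ifi27l2a tied for the fifth with Kcnq1. Cntf, Rtp4 and Irf7 ranked 42, 25 and 42, so that the genes most like the members depended on the measure.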

How the data were processed

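RNA from 12 mice, 3 per group, was poly(A)-selected and sequenced on a NovaSeq. The deposited values are estimated counts (expected counts) per gene, not normalized. The submitters' processing notes name Bowtie2 2.2.8, HISAT2, StringTie 1.3.1 and DESeq2, and the genome build and strand setting are not given in the sources used here. Between 7.36% and 8.69% of values per library were not whole and were rounded. Library totals ranged from 15650813 to 22406216 counts, which limits the precision of low genes. SDs and SEs are over mice.

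Groups were compared in R 4.3.3 with edgeR 4.0.16 (TMM, filterByExpr with a minimum count of 10 and total of 15, quasi-likelihood F-test, Benjamini-Hochberg adjustment over all genes tested, threshold 0.05) on the 2 groups compared, or all 12 libraries for the genotype difference in response. SE is the log2 fold change divided by the root of F. Every library is taken as a separate mouse, as the labels number them, and no pair looked like copies. On simulated counts the test was checked before use. Alternatives were RLE scaling, totals without TMM, DESeq2 1.42.0, no filter, at least 10 counts in every library, all 12 libraries in one fit, the replicate number as a block, each library left out in turn, and, chosen after seeing the data, summed counts of genes that share reads (Irgm2 with Igtp, Gbp6 with Gbp10).

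The members and gene lists (6 lists with 96 entries for related genes, 93 in the table, with Casp4 in 2 lists, and 9 lists of 70 markers) were chosen with earlier results of these data known. Gbp11, Gm12250 and Mx2 are not analysed here, and 1 gene that the rule names is not reported here. Named are the members, Fabp4, from each list up to 6 genes past the threshold, taken by smallest p, Ifng, Ifnb1, Irf1, Irf7, Irf9, and the 5 genes whose log2(CPM + 1) profile is most like the members' by Pearson correlation. Meox1, Cav1, Itgb3bp and Kcnq1 are named for their Spearman correlation. Promoters come from RefSeq on GRCm38.p6, exon lengths and shared 75-base stretches from GENCODE transcripts, and analysis and plots from Python 3.11.15 with pandas 2.3.3 and matplotlib 3.10.9.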

Additional observations from a re-analysis of the deposited data

How the results depend on the processing

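The member medians of the 4 comparisons kept their direction under every alternative and moved by less than the spread between replicates, and each member kept its direction in each of these comparisons except Irgm2 after ICH. The median difference in response to ICH lay near 0 and changed sign between alternatives. Counts of calls were less stable. With DESeq2, ICH against sham in Fabp4CKO mice gave 3543 lower genes (1642 with edgeR), Fabp4CKO against Fabp4flox/flox after ICH 255 higher and 323 lower (0 and 0) with 3 members, the same comparison in sham 11 higher and 139 lower (0 and 16) with 2 members, and the difference in response 183 higher and 83 lower (2 and 1). With all 12 libraries in one fit, ICH against sham in Fabp4CKO mice gave 2557 lower genes, and the genotypes after ICH 159 higher and 214 lower with 3 members. With at least 10 counts in every library, 2 genes were lower in sham and 1 was higher in the difference in response.

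With 1 library left out, ICH against sham gave 2633 to 4309 higher and 1465 to 3856 lower genes in Fabp4flox/flox mice, with 10 members in each fit and a member median from 2.61 to 3.10. In Fabp4CKO mice it gave 701 to 5203 higher and 50 to 4896 lower genes, 9 to 10 members and a median from 2.63 to 2.96. Between the genotypes after ICH there were 0 to 2 higher and 0 to 0 lower genes, 0 members, and a median from -0.89 to -0.56. In sham there were 0 to 1531 higher and 0 to 1331 lower genes, 0 to 9 members, and a median from -0.99 to -0.44. The difference in response gave 0 to 260 higher and 0 to 111 lower genes and a median from -0.41 to 0.22.

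Same-numbered mice did not deviate together beyond a correlation of 0.1 in every pair of any comparison, so the numbers were not taken as pairs. In Fabp4flox/flox mice each ICH mouse correlated best with the sham mouse of its own number, a hint from the data only. With the replicate block, the difference in response gave 1 higher and 0 lower genes, and ICH against sham in Fabp4CKO mice called 9 members, without Gbp4.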
